A study of Mus musculus with 11 samples.

Results

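The line of the pool examined here is marked by the 4-base identifier CCTT, which stood at rank 3 by total reads among 243 identifiers in mouse lungs seeded with a barcoded pool of pancreatic ductal adenocarcinoma (PDAC) lines. Its members are the 12966 listings that begin with CCTT, out of 135360 listings in 11 samples. The identifier was taken to mark a line from its place in the amplified cassette, which is an inference. The members comprise 8436 distinct barcodes. The identifier was chosen by its reads summed over all samples, so its total is a description. CCTT held 5773051 reads, 4.85% of the total, between GTTG at rank 2 with 28300061 reads and AGGT at rank 4 with 4702491. AACC, at rank 1, held 59984462.

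The pool had been injected into a vein of syngeneic 129/Bl6 F1 mice that had first received either vehicle or 6-hydroxydopamine (6-OHDA), per the series' design text. Lungs carrying metastases were taken 3 weeks later, with 6 samples in the vehicle group and 5 in the 6-OHDA group. All mice received the same pool and differed only in the pre-treatment, as far as the labels say. The age and sex of the mice, the name of each line and the barcode content of the pool before injection are not stated in the labels. Whether every library stems from its own mouse is not stated in the labels, so a p-value here reflects the spread over these samples, and part of that spread may be technical. Where lungs are counted below, samples are meant.

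6-OHDA is a dopamine analogue that catecholamine transporters carry into sympathetic nerve endings, where it is oxidised and destroys them. Sympathetic fibres reach the lung along its airways and vessels and release noradrenaline and, as a co-transmitter, neuropeptide Y. After injection into a vein, tumour cells are carried to the lung first, where cells that lodge and survive can found colonies. A heritable DNA barcode marks the descendants of a tagged cell, so the number of barcodes in a lung reflects seeding and the reads per barcode reflect outgrowth.

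The barcodes are shown first because each is the unit that was counted. All 8436 distinct CCTT barcodes were 20 bases long, with the identifier at the first 4 bases, a fixed G at positions 8, 12, 16 and 20, and 12 variable bases between them. Capitals mark the identifier. The 3 barcodes with the highest mean level over all samples are the first set.
highest mean level, a: CCTTagcgtgggatggatgg
highest mean level, b: CCTTggcggcagttaggggg
highest mean level, c: CCTTtgagtgaggaggtgtg

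The next set holds the 3 barcodes found in the most lungs.
most lungs, a: CCTTttcgtacgctagagag
most lungs, b: CCTTcgagctcgttagtgcg
most lungs, c: CCTTgaggaaagcgggtcgg

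The last set holds the 2 barcodes with the lowest p-values between the groups.
lowest p, a: CCTTagcgatagcacgtccg
lowest p, b: CCTTctggtgggtgcgttgg

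The variable bases were not evenly used. Among the 6379 CCTT barcodes counted as colonies, G made up 31.6% of the variable bases, T 30.7%, A 21.0% and C 16.6%. Among the 40653 such barcodes of all other identifiers the shares were 30.1, 29.6, 22.0 and 18.3%, so the skew was common to the pool. Within a sample, the rank correlation between the number of G and C among the variable bases and colony size lay between -0.08 and 0.04 over the 11 samples, a description across 425 to 1397 colonies that share a library.

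A barcode was counted as a colony if it kept at least 10 reads after every library had been thinned at random to the smallest read total, 6436469. Of the 12966 listings, 9906 passed. Colony size is given in RPM (reads per 1000000 library reads), so that a colony measures 1.55 RPM or more. Such sizes are parts of a library, not cell numbers. A lung with more tumour cells in all yields fewer reads per cell. Libraries held 6436469 to 15665492 reads before thinning, and vehicle samples 3 and 4 were the deepest of their group.

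Few CCTT colonies lay close in sequence to another barcode. A barcode 1 base away was present in the same library for 91 of the 9906 colonies, or 0.919%. That neighbour had at least 20 times the reads for 4 colonies. The bases after the identifier stood, with more reads, under another identifier of the same library for 13 of the 12966 listings. Single-read listings were 5.12 to 19.4% of those of CCTT in a library, against 20.8 to 49.2% over all identifiers. Listings under the minimum held at most 0.825% of the CCTT reads of a library.

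CCTT colonies were many and small. The line held 14.5% of all colonies with 4.85% of all reads, whereas AACC held 18.9% of colonies with 50.4% of reads. These shares belong to the choice of the line and are given as a description. By number of colonies CCTT stood at rank 2 in 6 samples, at rank 3 in 4 and at rank 1 in 6-OHDA sample 4, where it had 836 colonies against 797 for AACC. By reads it stood at rank 2 in vehicle sample 5, at rank 4 in vehicle sample 3 and in 6-OHDA sample 5, and at rank 3 in the other samples. The median CCTT colony was smaller than that of AACC, GTTG and AGGT in all 11 samples. It measured 0.125 to 0.197 of the AACC median, a narrow range over both groups. On average this order held at minimums of 2 and 30 reads and turned in part with none. At a minimum of 2 reads the mean log2 ratio to the AACC median was -2.63 in vehicle and -2.65 in the 6-OHDA group. To GTTG it was -1.02 and -3.41 at that minimum, and to AGGT -0.82 and -0.99. With neither a minimum nor thinning, the mean log2 ratio of the CCTT to the AACC median was 4.86 in vehicle and 0.73 in the 6-OHDA group. To GTTG it was 0.63 and -1.96, and to AGGT -0.70 and -0.88.

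The number of CCTT colonies per lung was compared first, since the study asked how sympathetic nerves affect metastatic seeding. Vehicle samples held 425 to 1072 CCTT colonies with a median of 633.5, and 6-OHDA samples 1 to 5 held 1397, 1062, 1140, 836 and 1262. Vehicle samples 1, 2, 5 and 6, at 425 to 657, lay below every 6-OHDA sample. Vehicle samples 3 and 4, at 996 and 1072, lay inside the 6-OHDA range. The means were 702 ± 274 (SD, n = 6) and 1139 ± 212 (SD, n = 5).

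The higher number did not pass the test across identifiers. The log2 change was 0.70 (SE 0.42, edgeR quasi-likelihood adjusted p = 0.182), and 36 of 38 identifiers had values above 0, with a median of 1.13. None of the 38 identifiers, 0%, was called. The count at an unadjusted p under 0.05 was 6, and DESeq2 called 2. As a single value, the CCTT colony number gave an unadjusted exact permutation p of 0.0303, two-sided, over all 462 ways to assign the group labels. Scaled to the colonies of all identifiers by TMM, the direction turned, with a log2 change of -0.72 (edgeR adjusted p = 0.124), and by DESeq2's size factors it was -0.69 (DESeq2 adjusted p = 0.0571).

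The part of all colonies that were CCTT was lower on average in the 6-OHDA group and also missed the threshold. It made up 12.5 to 22.8% of the colonies of a vehicle sample with a mean of 18.3 ± 4.45% (SD, n = 6). In 6-OHDA samples 1 to 5 it made up 12.1, 16.7, 14.1, 15.05 and 12.2%. The samples with the fewest CCTT colonies, vehicle 1, 2, 5 and 6, had the highest shares, at 19.5% and above. The log2 difference was -0.35 (SE 0.18, limma adjusted p = 0.148), where 0% of 16 identifiers were called in limma, 6 had an unadjusted p under 0.05, and the median over identifiers was 0.08. It was -0.22 at a minimum of 2 reads and -0.096 with neither a minimum nor thinning, and it did not pass in either. Without vehicle sample 4 it was -0.45 and passed (limma adjusted p = 0.0429).

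The part of the reads taken by CCTT pointed the same way. CCTT held 3.85 to 7.85% of the reads of a vehicle sample, 6.01 ± 1.63% on average (SD, n = 6). It held 3.29, 4.91, 3.49, 5.12 and 3.45% in 6-OHDA samples 1 to 5, 4.05 ± 0.885% on average (SD, n = 5). In 3 of the 5 6-OHDA samples the share was below that of every vehicle sample. The log2 difference of -0.55 (SE 0.27) was the lowest of the 16 identifiers, yet its limma adjusted p was 0.219, and 6.25% of the 16 identifiers were called. The unadjusted exact permutation p for CCTT alone was 0.0390. On reads scaled by TMM the change was -1.05 (SE 0.30, edgeR adjusted p = 0.0599), and 16 other identifiers had lower values. Shares of a library add up to a fixed total, and the 1 identifier called was GTTG, which rose by 1.61 (limma adjusted p = 0.0425). Fewer CCTT cells and more cells of other lines cannot be told apart here.

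The next comparison concerned colony size. The median CCTT colony measured 13.9 to 48.3 RPM in vehicle samples, with vehicle samples 3 and 4 lowest at 16.3 and 13.9 RPM and the other 4 at 31.5 RPM or more. In 6-OHDA samples 1 to 5 it measured 9.94, 13.7, 11.2, 19.3 and 9.32 RPM. 4 of the 5 6-OHDA samples lay below every vehicle sample, and sample 4 lay above the lowest 2. The means were 32.7 ± 14.7 RPM (SD, n = 6) and 12.7 ± 4.07 RPM (SD, n = 5).

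The median size fell by 1.26 on the log2 scale (SE 0.39, limma adjusted p = 0.0189). This call was shared by 12 of the 16 identifiers, 75%. The median change over all 16 was -1.23, so in RPM the CCTT value was close to that median. Without 6-OHDA sample 5 the change was -1.17 and just missed the threshold (limma adjusted p = 0.0503). On a scale with a fixed total, smaller sizes are tied to higher colony numbers and are not a separate result. Expressed as a part of the line's own reads, the change in median size was -0.71 (SE 0.37, limma adjusted p = 0.103). On that scale 10 of the 16 identifiers were called, with a median change of -1.22. Ranked from the lowest value, CCTT stood at 15 of the 16, so its fall was among the smallest. This scale also has a fixed total, the line's own colony reads. The value is thus tied to the line's colony number, and the rank is not a separate result on size.

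The upper part of the size distribution moved with the median. The 90th percentile of CCTT colony size averaged 284 ± 169 RPM in vehicle (SD, n = 6) and 94.3 ± 41.9 RPM in the 6-OHDA group (SD, n = 5), -1.43 on the log2 scale (SE 0.53, limma adjusted p = 0.0151). Here 81.2% of the 16 identifiers were called, with a median change of -1.37. limma pooled the spread fully, with the same SE for all 16 identifiers, although these share the same samples. The unadjusted exact permutation p for CCTT alone was 0.0281. The CCTT call was lost without vehicle sample 1 (-1.19, limma adjusted p = 0.0525) and without 6-OHDA sample 3 (-1.37, limma adjusted p = 0.0527). It was also lost without 6-OHDA sample 1 (-1.30, limma adjusted p = 0.0610) and without 6-OHDA sample 5 (-1.30, limma adjusted p = 0.0638).

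The 99th percentile did not pass. It was 890 ± 473 RPM in vehicle (SD, n = 6) and 341 ± 144 RPM in the 6-OHDA group (SD, n = 5), a log2 difference of -1.27 (SE 0.51, limma adjusted p = 0.0574). Of the 16 identifiers 0% were called in limma and 6 had an unadjusted p under 0.05. The CCTT value passed without vehicle sample 3 (-1.45, limma adjusted p = 0.0395), without vehicle sample 4 (-1.53, limma adjusted p = 0.0077) and without 6-OHDA sample 4 (-1.47, limma adjusted p = 0.0363).

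By size class, the 6-OHDA group had more CCTT colonies on average below 100 RPM and fewer above. Vehicle samples held 122 ± 85.1 CCTT colonies under 5 RPM (SD, n = 6) and 6-OHDA samples 307 ± 112 (SD, n = 5). Between 5 and 20 RPM the numbers were 201 ± 133 and 423 ± 106, and between 20 and 100 RPM 235 ± 84.7 and 316 ± 33.2. Above that the order turned, with 121 ± 32.6 against 87.6 ± 28.5 colonies from 100 to 500 RPM. Of 500 RPM and over there were 45, 25, 7, 2, 29 and 30 colonies in vehicle samples 1 to 6, and 0, 8, 2, 14 and 3 in 6-OHDA samples 1 to 5. The 0 of 1397 colonies in 6-OHDA sample 1 allows a share of up to 0.215%, for counting error only. Vehicle samples 3 and 4, with 7 and 2, lay inside the 6-OHDA range. These classes were not tested one by one.

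The reads of the line were carried by its larger colonies. Over all samples, the 22.9% of CCTT colonies under 5 RPM held 1.22% of the CCTT colony reads, and the 1.67% of 500 RPM and over held 25.9%. In vehicle samples colonies of 500 RPM and over held 30.7 ± 21.0% of the CCTT colony reads (SD, n = 6), from 5.07% in sample 4 to 60.8% in sample 1. In 6-OHDA samples they held 8.87 ± 8.09% (SD, n = 5).

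Colonies next to the minimum made up more of the line in the 6-OHDA group. Those with 10 to 19 thinned reads were 6.12 to 12.5% of CCTT colonies in vehicle samples, and 15.2, 12.7, 15, 9.33 and 17.1% in 6-OHDA samples 1 to 5. The difference of 5.39 points passed (SE 1.76, limma adjusted p = 0.0393), as it did for 50% of the 16 identifiers, with a median of 4.88 points. At a minimum of 2 reads, where colonies of 2 to 19 thinned reads count, it was 10.05 points (limma adjusted p = 0.0281, 9 of 19 identifiers called). With neither a minimum nor thinning it was 2.005 points (limma adjusted p = 0.514). That value counts all listings under 20 raw reads in libraries of unequal depth, so it is a different measure. The call was lost without vehicle sample 1, 2, 5 or 6 or without 6-OHDA sample 1, 3 or 5, each taken alone, with differences of 4.92, 5.003, 5.21, 5.07, 5.06, 5.11 and 4.58 points.

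Inequality among CCTT colonies showed no difference that passed the test. The 10 largest colonies held 18.1 ± 6.25% of the CCTT colony reads in vehicle (SD, n = 6) and 13.4 ± 3.29% in the 6-OHDA group (SD, n = 5), a difference of -4.70 points (SE 4.66, limma adjusted p = 0.409) that was -2.71 points without vehicle sample 1. The effective number of colonies, the number of equal colonies that would give the same concentration of reads, ranged from 58.7 in vehicle sample 1 to 233 in vehicle sample 4. In 6-OHDA samples 1 to 5 it was 405, 203, 249, 157 and 200. The log2 difference was 0.71 (SE 0.50, limma adjusted p = 0.251), and 0.46 without vehicle sample 1. None of the 16 identifiers, 0%, was called in limma for either measure, with 6 and 4 at an unadjusted p under 0.05. For the 10 largest colonies all 16 identifiers had values below 0, with a median of -19.7 points. Ranked from the lowest value, CCTT stood at 14 of the 16. The share held by 10 colonies depends on how many colonies a line has, so this rank is a description. For the effective number 15 of the 16 lay above 0, with a median of 0.94.

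The largest CCTT colony of a sample was a minor part of the line. It measured 6459, 1091, 1118, 1092, 1804 and 2444 RPM in vehicle samples 1 to 6, and 398, 1456, 809, 1598 and 1138 RPM in 6-OHDA samples 1 to 5. The groups overlapped, and the log2 difference was -0.92 (SE 0.56, limma adjusted p = 0.311, 0% of 16 identifiers called in limma and 3 at an unadjusted p under 0.05). Without vehicle sample 1 it was -0.56 (limma adjusted p = 0.581). The colony of vehicle sample 1 carried the barcode with the highest mean level, CCTTagcgtgggatggatgg, and held 8.31% of the CCTT reads of its library. That barcode had no thinned reads in the other 10 samples. In the other samples the largest colony held 1.21 to 3.31% of the CCTT reads.

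The next barcode by mean level, CCTTggcggcagttaggggg, was also a colony of vehicle sample 1, at 4533 RPM. It recurred at 96.2 RPM in vehicle sample 4 and 30.1 RPM in vehicle sample 5 and was absent from the other 8 samples. The one after it, CCTTtgagtgaggaggtgtg, was a colony in 8 samples. It measured 870, 820, 14.0 and 1230 RPM in vehicle samples 1, 3, 4 and 6, and 85.3, 61.2, 12.7 and 82.3 RPM in 6-OHDA samples 1, 2, 3 and 5.

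Recurrence of CCTT barcodes was examined next. If tagged cells divided before injection, the same barcode can seed several lungs, and colony numbers are numbers of barcodes rather than of seeding events. Among the 6379 distinct CCTT colony barcodes, 4283 occurred in 1 sample, 1279 in 2, 467 in 3 and 210 in 4. A further 74 were found in 6 or more, and none in all 11. The 2096 recurring barcodes were 32.9% of the barcodes and made up 56.8% of the CCTT colonies. By colonies, 63.2% recurred for AACC, 82.3% for GTTG and 47.1% for AGGT.

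The barcode found in the most lungs, CCTTttcgtacgctagagag, was a colony in 10 of the 11. Its size ranged widely, at 1154, 804, 157, 96.3 and 57.3 RPM in vehicle samples 1 to 5, and 10.4, 3.26, 4.51, 49.9 and 161 RPM in 6-OHDA samples 1 to 5. It was absent from vehicle sample 6. CCTTcgagctcgttagtgcg, in 9 lungs, was largest in vehicle sample 1 at 1468 RPM and smallest in 6-OHDA sample 3 at 3.11 RPM. CCTTgaggaaagcgggtcgg, in 9 lungs, ranged from 3.57 RPM in 6-OHDA sample 3 to 981 RPM in vehicle sample 5.

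The share of a sample's CCTT colonies that recurred elsewhere lay in a narrow range. It was 54.1 to 63.5% in vehicle samples, 59.1 ± 3.70% on average (SD, n = 6). In 6-OHDA samples 1 to 5 it was 55.3, 56.9, 57.4, 54.1 and 55.6%. The difference of -3.23 points did not pass (SE 2.26, limma adjusted p = 0.256). Of the 16 identifiers 0% were called in limma and 5 had an unadjusted p under 0.05. The difference was -1.48 points at a minimum of 30 reads and -0.35 with neither a minimum nor thinning. The value of a sample depends on how many colonies the other samples hold.

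Recurring CCTT colonies were larger than those found in 1 lung in 10 of 11 samples. The ratio of their median sizes lay between 0.908 and 1.62 with a median of 1.39, and vehicle sample 5 was the exception. The median size over all samples was 12.3 RPM for barcodes of 1 lung, 14.4 for 2, 17.7 for 3, 22.4 for 4, 30.5 for 5 and 27.2 for 6. These medians pool samples whose typical sizes differ, and a large colony passes the minimum more easily, so they are a description. For AACC the ratio of median sizes was above 1 in 11 samples, for GTTG in 10 and for AGGT in 8, with medians of 1.88, 2.05 and 1.21.

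Sizes of the same CCTT barcode in different lungs were at most weakly related. Over the 55 pairs of samples, which shared 38 to 220 CCTT colonies, the rank correlation of sizes had a median of 0.13, from -0.15 to 0.37. It was above 0 in 48 of the 55 pairs, as a description over barcodes of the same pool. Of the 165 CCTT colonies of 500 RPM and over, 114 had the same barcode as a colony in another lung. For 17 of them that colony also reached 500 RPM. The median size of the largest colony with the same barcode in another lung was 67.9 RPM. In the 6-OHDA group the largest CCTT colony of each of the 5 samples carried a barcode that was a colony in no other sample, as did 2 of the 6 largest colonies in vehicle, a difference that was not tested.

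Overlap between samples was compared within and between the groups. A pair of samples shared 7.91 to 22.0% of the smaller list of CCTT colonies and 5.70 to 15.7% of the larger. The most, 220 barcodes, were shared by 6-OHDA samples 1 and 3, 15.7% of the first list and 19.3% of the second. The fewest, 38, were shared by vehicle samples 1 and 5, 8.94 and 8.46%. Relative to the number expected from colony numbers and the 6379 barcodes seen, overlap within groups exceeded that between groups by 0.03 on the log2 scale (exact permutation p = 0.377, two-sided). That test averages vehicle pairs with 6-OHDA pairs, so opposite shifts in them can cancel. The median log2 of observed over expected was -0.009 within vehicle (-0.33 to 0.35) and -0.30 within the 6-OHDA group (-0.49 to -0.16). Between the groups it was -0.17 (-0.73 to 0.23), and this order was not tested. The expected number counts only barcodes that were seen. Lists were longer on average in the 6-OHDA group, at 836 to 1397 colonies against 425 to 1072 in vehicle. The longest vehicle lists, of samples 3 and 4, gave -0.32, inside the range within the 6-OHDA group. Whether list length accounts for the order was not tested. Between the groups as a whole, 1415 barcodes were shared, 41.7% of the 3391 seen in vehicle and 32.1% of the 4403 seen in the 6-OHDA group. The same shares for the other identifiers are not given here. These values therefore describe CCTT alone and cannot tell a trait of the line from one of the pool.

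Whether single CCTT barcodes differed between the groups was tested over all 2234 barcodes counted as colonies in 4 or more samples, 350 of them CCTT. By edgeR's quasi-likelihood test 0 of the 350 passed an adjusted p of 0.05, and 0% of all 2234 barcodes were called. At an unadjusted p under 0.05 there were 16, or 4.57%, against 5.28% over all barcodes. DESeq2 called 14 of the 350, or 4%, against 129 of all 2234, or 5.77%. It gave part of the barcodes no p-value, so these are shares of the barcodes entered. Among barcodes with a DESeq2 p-value, 14.1% of CCTT and 18.3% of all had an unadjusted p under 0.05. The spread of reads per barcode was very wide, with a median dispersion of 13.6, a squared coefficient of variation. On data simulated with that spread the edgeR test recovered no changed barcode, so its lack of calls says nothing about single barcodes.

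The lowest p belonged to CCTTagcgatagcacgtccg, which had 25.2, 2.18, 7.77, 103 and 6.68 RPM in 6-OHDA samples 1 to 5 and no read in the 6 vehicle samples. Its mean of 187 thinned reads was at least 62.3-fold higher than a floor of 3 reads per library (edgeR adjusted p = 0.119). CCTTctggtgggtgcgttgg had 7.61, 13.4, 3.88 and 143 RPM in 6-OHDA samples 1 to 4, and no read in sample 5 or in the vehicle samples. Its mean was at least 72.2-fold higher than that floor (edgeR adjusted p = 0.119). Both barcodes entered the test only through the 6-OHDA samples, in which they were colonies in 5 and 4, and both were picked for their p, so these values are descriptions and support no difference.

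The last comparison asked whether the response of CCTT differed from that of the lines next to it in rank. Per sample, the CCTT value was divided by that of AACC, GTTG or AGGT, and 9 such comparisons were adjusted together. Against AACC the ratio of colony numbers was 0.676 to 0.909 in vehicle and 0.675 to 1.05 in the 6-OHDA group, a log2 difference of -0.03 (adjusted exact permutation p = 0.801) whose sign depended on the minimum on reads. Against AGGT it was 2.10 to 3.97 and 2.37 to 3.47, a log2 difference of 0.04 (adjusted exact permutation p = 0.801). The ratios of median size and of reads to these lines did not pass either, with log2 differences from -0.18 to 0.18. A missed threshold does not show that the lines responded alike.

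Against GTTG the ratios were further apart and still missed the threshold. CCTT had 0.890 to 5.83 times the colonies of GTTG in vehicle samples, and 0.851, 1.24, 0.895, 1.14 and 0.807 times in 6-OHDA samples 1 to 5 (log2 difference -1.22, adjusted exact permutation p = 0.123). The ratio of median sizes was 0.109 to 0.523 in vehicle and 0.101 to 0.132 in the 6-OHDA group (log2 difference -1.44, adjusted exact permutation p = 0.107). For reads the log2 difference was -2.16 (adjusted exact permutation p = 0.107). In each measure all 5 6-OHDA samples lay below the vehicle mean. Vehicle samples 3 and 4 lay close to the 6-OHDA samples, with colony ratios of 1.04 and 0.890. Without vehicle sample 4 the ratio of median sizes (-1.74) and that of reads (-2.64) passed, both with an adjusted exact permutation p of 0.0357.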

How the data were processed

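Barcode libraries were amplified from 32 µg of genomic DNA of each lung in 27 PCR cycles, after a benchmark spike-in cell line had been added, per the labels' protocols. Each of the 11 deposited tables, 1 per sample, holds raw read counts by barcode cluster, per the file headers, with a cluster score that was not used (the authors' score, per the file headers). The clustering tool is not given in the sources used here. No row named the spike-in, so sizes are relative. The 4 leading bases were taken as a line, an inference from the cassette layout. Of all listings, 4 with an undetermined base were dropped.

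Libraries were thinned to 6436469 reads (depth 6436469 to 15665492), and barcodes with at least 10 thinned reads counted as colonies. PCR reads carry no molecular identifiers, so intervals and floors cover counting error only. edgeR 4.0.16 tested colony number over 38 identifiers and reads over barcodes (equal library sizes). limma 3.58.1 tested the other statistics, log2 values except for percentages, over the 16 identifiers that reached 20 colonies in each sample. p-values were Benjamini-Hochberg adjusted over identifiers or barcodes, for each of 11 line statistics apart, at 0.05. As an alternative, edgeR with TMM scaling tested reads per identifier. Ratios and overlap were tested by exact permutation over all 462 assignments of the group labels. Barcodes were named by mean RPM, number of samples, largest colony and lowest p. Members and lists were chosen with earlier results of these data known. Tests were checked on simulated data. R 4.3.3, DESeq2 1.42.0, Python 3.11.15, numpy 2.4.6, pandas 2.3.3 and scipy 1.17.1 were used.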

Additional observations from a re-analysis of the deposited data

Results flagged for a closer look

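A single CCTT value stood far from the rest of its group. The largest CCTT colony of vehicle sample 1 measured 6459 RPM, against 1091 to 2444 RPM in the other 5 vehicle samples, with a gap to the nearest of them of 0.748 of the group's range. It was the only such value in 24 groups of values examined, where chance gives about 1 in 20, or 1.2. Without vehicle sample 1 the log2 difference in the largest colony was -0.56 in place of -0.92, and neither passed the threshold.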

How the results depend on the processing

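Of 171 values recomputed under alternatives other than leaving out a sample, 153 kept their direction and their side of the threshold; for the others the cause was not tested. The CCTT colony number was -0.72 with TMM and -0.69 with DESeq2, both relative to the colonies of all identifiers. The unadjusted exact permutation test passed for colony number (0.77), share of reads (-0.55) and the 99th percentile (-1.27). With a minimum of 2 reads the 99th percentile passed (-1.32), and against AACC the colony number turned to 0.076 and the median size to -0.022. With neither a minimum nor thinning these were 0.34 and -4.12, and the median size (-1.13) and colonies under 20 reads (2.005 points) no longer passed. The value for colonies under 20 reads then counts raw reads at unequal depth and is a different measure. The median as a part of the line's own reads (-0.71) did not pass. At the same RPM minimum without thinning, colonies under 20 reads gave 0.70 points, a void value because that minimum exceeds 20 reads in the deepest libraries. DESeq2 called 14 of 350 CCTT barcodes and 129 of all 2234. Among values that stayed short of the threshold, share of colonies was -0.22 at a minimum of 2 reads and -0.096 with neither a minimum nor thinning, recurring colonies -1.48 points at a minimum of 30 reads and -0.35 with neither, and share of reads -1.05 with TMM. At a minimum of 30 reads colonies under 20 reads cannot occur, so no value exists.

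No pairing by the sample numbers in the titles was seen in the colony numbers of 16 identifiers. Deviations of same-numbered samples correlated above 0.1 in 0 of 5 pairs, and 0 of 5 6-OHDA samples correlated best with their own number. Whether same-numbered samples share a batch is not stated in the labels, and this check cannot decide it. With the replicate number as a block, median size (-1.15), the 90th percentile (-1.32) and colonies under 20 reads (5.07 points) did not pass, and no other call changed. Within the 5 pairs the smallest possible exact p is 0.0625.

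Leaving out each sample in turn gave -0.45 to -0.28 for share of colonies, -1.48 to -1.12 for median size, -1.73 to -1.19 for the 90th percentile, -1.53 to -1.07 for the 99th and 4.58 to 6.52 points for colonies under 20 reads. The largest colony gave -1.10 to -0.56, the 10 largest -5.74 to -2.71 points and the effective number 0.46 to 0.86. It gave -0.14 to 0.020 for colony number against AACC, -0.033 to 0.15 against AGGT, -1.74 to -1.29 for median size and -2.64 to -1.89 for reads against GTTG, and -0.017 to 0.080 for overlap. With 6 and 5 samples, smaller differences would go unseen.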
